A study of Drosophila melanogaster with 30 samples.

Results

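Heads that carried only the neuronal driver transgene were compared with heads that carried only the responder transgene, the 2 control genotypes of an experiment on Bchs in neurons. Bchs (blue cheese) is the fly counterpart of WDFY3, a large adaptor protein of selective autophagy. The members were chosen by genotype label alone. They were the 5 nSyb-Gal4 control libraries (nSyb-Gal4/+) and the 5 UAS control libraries of the same dataset (UAS-bchs::HA/+), 10 of the 30 libraries of the series.

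In the whole study, the HA-tagged Bchs was overexpressed in neurons with nSyb-Gal4 or in glia with repo-Gal4, and each overexpression group had its own driver control and its own UAS control, with 5 libraries a group. All 10 libraries compared here came from adult heads of flies collected 22 to 31 h after eclosion, and their RNA was purified with a column kit; the glia dataset began with a Trizol extraction. The nSyb-Gal4 control expressed the yeast activator Gal4 under a promoter active in neurons, with no UAS target, and the UAS control held the bchs::HA responder with no Gal4 to switch it on. Neither group was therefore an overexpression group, and the labels name no mutation of the native bchs gene in either. The strain behind the "+" chromosome, the sex of the heads and the hour of day at collection are not given in the sources used here. Nor do the labels say that the 5 libraries of a group came from separate batches of flies, so p-values measure the spread between these libraries, which may be technical. Transgene, strain and handling differ between the groups at once and cannot be told apart by this design.

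In the Gal4/UAS system a driver line makes Gal4 in chosen cells and a responder line carries a gene behind Gal4 binding sites, so both transgenes must meet in one fly before the gene is switched on. Driver and responder lines are kept as separate stocks, and each stock carries its own alleles around and beyond its insertion. Fly head RNA comes mainly from brain and eye, with contributions from the fat body, muscle and cuticle of the head, and many of its transcripts follow the daily clock.

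The nSyb-Gal4 control libraries held 44017794 to 60266009 gene counts and the UAS control libraries 47046646 to 56426445, and levels are given in CPM, counts per 1000000 gene counts after TMM scaling. Neuron markers were on in every library, with a summed level of the 6 markers (elav, nSyb, Syt1, brp, fne and Appl) of 3352 to 4363 CPM in nSyb-Gal4 controls and 3004 to 4219 CPM in UAS controls. By edgeR 0 of the 6 were called, although 5 had an unadjusted p under 0.05 and all 6 a positive log2 fold change (median 0.26); DESeq2 called 3 and limma-voom 1, and 6 were called higher without nSyb-Gal4 control 5 and UAS control 5. The 7 glial markers summed to 3888 to 4245 CPM against 3905 to 4117 CPM, the 6 photoreceptor markers to 29465 to 34182 CPM against 30516 to 34083 CPM, and the 5 fat body markers to 2289 to 4098 CPM against 2418 to 3123 CPM. Gut markers, at 5.63 to 7.81 CPM against 5.84 to 7.45 CPM in sum, and germ line markers, at 0.29 to 0.533 CPM against 0.547 to 1.31 CPM, were close to absent. Libraries stood apart in both groups: nSyb-Gal4 control 5, UAS control 5 and, to a lesser extent, UAS control 2 lay towards the other group in mitochondrial transcripts and in long transcripts, as set out with those genes further on. The chi-square per degree of freedom of UAS control 2 to UAS controls 1, 3 and 4 was 130.3 to 140.1, against 20.7 to 38.8 among those 3. For UAS control 5 to the same 3 libraries it was larger, at 386 to 422.7. For nSyb-Gal4 control 5 to the other nSyb-Gal4 controls it was 143.6 to 179.8, against 18.13 to 72.72 among those.

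The groups differed in many of the expressed genes, mostly by small amounts. Of 10778 genes tested, 2759 (25.6%) passed an adjusted p of 0.05 in edgeR's quasi-likelihood test, 1267 higher (11.8%) and 1492 lower (13.8%) in the nSyb-Gal4 control. The median log2 fold change was 0.36 among the higher genes and -0.30 among the lower genes, and 302 genes (2.8%) were called with a change of at least 2-fold, 154 of them higher and 148 lower. At least 4-fold were 41 higher and 30 lower genes. In 1421 genes (13.2%) the libraries of the groups did not overlap; the 5 nSyb-Gal4 control libraries were all above the 5 UAS control libraries in 573 genes (5.32%) and all below in 848 (7.87%). The count of calls rested on the libraries in the fit: it was 367 when the libraries of all 6 groups shared 1 estimate of the spread, 1866 without UAS control 4, 3743 without UAS control 5, 4424 without nSyb-Gal4 control 5 and UAS control 5, and 4594 without these and UAS control 2. The last 2 sets were left out, here and below, by a choice made after seeing the data.

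**Figure D1:**
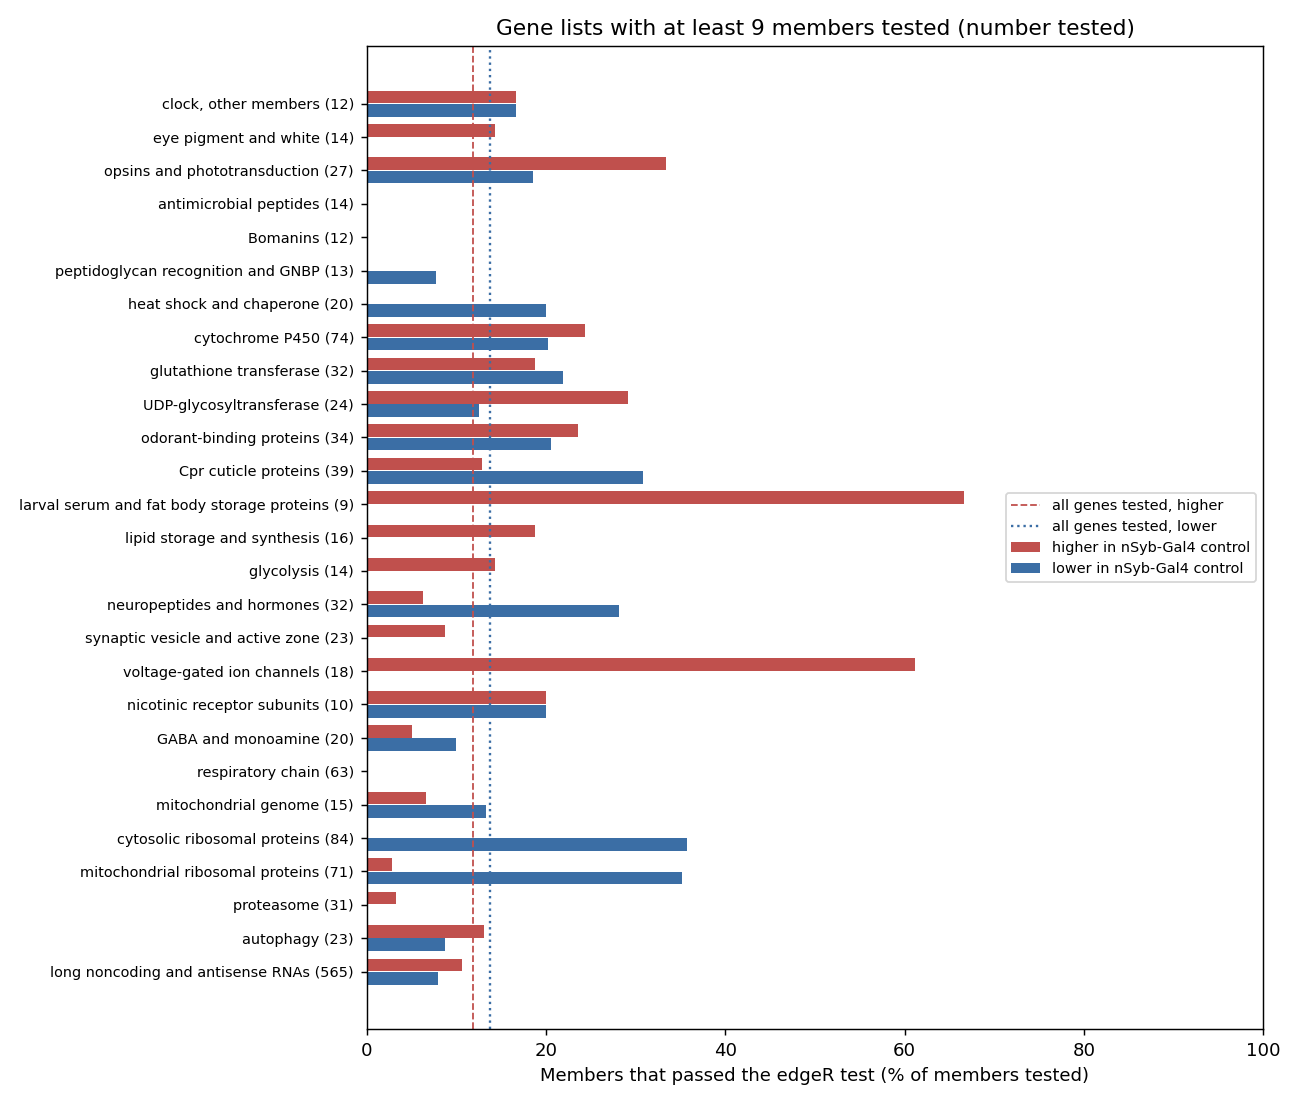
Members called by edgeR's quasi-likelihood test at an adjusted p under 0.05 (x axis), higher or lower in the nSyb-Gal4 control. The 27 gene lists with at least 9 members tested are shown (y axis, with the number tested). Voltage-gated ion channels and storage proteins were called in 1 direction, ribosomal proteins almost only lower, and detoxification genes in both.

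The bchs gene itself (FBgn0043362, 2L:5907169-5922776, plus strand, BDGP6) did not separate the groups. It had 98.2, 105, 128, 82.9 and 94.6 CPM in nSyb-Gal4 control libraries 1 to 5 and 83.2, 88.1, 104, 81.4 and 100 CPM in UAS control libraries 1 to 5. The ranges overlapped, and the log2 fold change was 0.16 (SE 0.14, adjusted p 0.441; two-sided exact permutation test, p = 0.286). In heads with both transgenes bchs averaged 428 ± 97.6 CPM (SD, n = 5).

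The gene w (white, FBgn0003996, X:2790599-2796466) encodes part of an eye pigment transporter, and its mini-white form is a common marker of fly transgenes. It had 15.1, 15.6, 16.3, 15.6 and 17.2 CPM in nSyb-Gal4 controls and 5.98, 5.98, 5.98, 5.95 and 6.17 CPM in UAS controls. No library of one group came near the other group. The level was 16.0 ± 0.812 CPM against 6.01 ± 0.0892 CPM (SD, n = 5 each), a log2 fold change of 1.41 (SE 0.06, adjusted p 3.11e-11). The exact two-sided permutation test of w gave p = 0.00794, the smallest that 252 splits of 5 against 5 libraries can give. Of the 14 eye pigment genes only w and pr, which encodes an enzyme of the pteridine pigments, were called, pr at 176 ± 7.82 against 152 ± 17.7 CPM (log2 fold change 0.21, adjusted p 0.0336), a call lost in 6 of 10 fits that each left out 1 library and with the replicate number as a block.

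The genes with the largest differences were close to off in 1 of the groups. Those that were higher in the nSyb-Gal4 control included a pair of neighbours on chromosome X, sordd2 (X:15796908-15799162) and the pseudogene CR44383 (X:15796477-15796897). sordd2 had 67.7, 65.2, 69.3, 61.0 and 69.2 CPM in nSyb-Gal4 controls and 0.041, 0.0208, 3.42, 1.95 and 0.0391 CPM in UAS controls. It was high in each library of the driver line, while UAS controls 3 and 4 stood above the other UAS controls, and the log2 fold change was 5.89 (SE 0.64, adjusted p 3.63e-05). CR44383 followed the same split, with 1.85 ± 0.254 against 0.0742 ± 0.0823 CPM and its highest UAS value, 0.22 CPM, again in UAS control 3.

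Tektin-C (3L:5794405-5796543), a filament protein of cilia and sperm tails, showed the smallest adjusted p among the abundant genes. It had 52.0, 48.5, 45.4, 49.8 and 46.4 CPM in nSyb-Gal4 controls, against 2.07, 2.12, 2.40, 2.37 and 2.23 CPM in UAS controls. Both groups were tight around their own level, and the log2 fold change was 4.43 (SE 0.07, adjusted p 6.52e-18). The antisense RNA asRNA:CR45822 (3L:7355717-7356598) was at 7.41 ± 0.541 against 0.101 ± 0.0789 CPM (log2 fold change 6.12). It overlaps an exon of CTCF, which encodes a chromatin insulator protein and had 34.5 ± 2.65 against 31.9 ± 0.792 CPM (adjusted p 0.128), and since strand use in counting is not stated, reads of the pair cannot be told apart.

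Transcripts of chromosome Y were also in this group. FDY (Y:3022289-3024024), a Y-linked copy of the autosomal gene vig2, had 1.83, 2.59, 1.65, 5.85 and 2.43 CPM in nSyb-Gal4 controls and at most 3 counts in a UAS control library, at least 49.1-fold higher against a floor of 3 counts per library. The Y-linked pseudogene CR46150 (Y:3258406-3259223) was at 0.436 ± 0.258 CPM against at most 1 count in a UAS control library, at least 7.46-fold higher. vig2 itself had 102 ± 3.03 against 109 ± 6.34 CPM (adjusted p 0.144), and the counts of FDY are uncertain because reads of the copies may be shared. Of the 113 genes on chromosome Y, 33 had any count and these 2 passed the filter on low counts; the others together had 330 counts in nSyb-Gal4 control and 92 in UAS control libraries.

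The other 4 of the 10 genes with the largest rise were CG32650, at 1.10 ± 0.169 CPM against at most 2 counts in a UAS control library (at least 18.7-fold higher), CG14406 (3.08 ± 0.671 against 0.0719 ± 0.045 CPM), lncRNA:CR40469 (2.69 ± 0.692 against 0.13 ± 0.0656 CPM) and CG18577 (0.922 ± 0.17 against 0.0469 ± 0.0422 CPM). CG32650, CG14406 and lncRNA:CR40469 lie on chromosome X. In all 10 genes every nSyb-Gal4 control library was above every UAS control library, which the naming rule asked for.

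Among the genes that were lower, CG14691 (3R:10753331-10755634) and CG9698 (3R:30514777-30516980) had 0 counts in all 5 nSyb-Gal4 control libraries. CG14691 was at 0.573, 0.374, 0.36, 0.384 and 0.41 CPM in UAS controls, which makes it at least 6.82-fold lower in nSyb-Gal4 controls, and CG9698 was at least 4.82-fold lower. The adjoining pseudogenes CR43105 and CR43186 (2R:15374846-15376481) had at most 1 and 2 counts in an nSyb-Gal4 control library, at least 9.19-fold and 6.61-fold lower. With the same floor CG31482 was at least 8.57-fold, lncRNA:CR46350 at least 13.8-fold and CG6592 at least 21.1-fold lower.

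Other genes that fell kept some counts in both groups, although CG43291 and Elo68alpha were near the floor in nSyb-Gal4 controls. Pepck2 (2R:18527430-18535749), a phosphoenolpyruvate carboxykinase of gluconeogenesis, had 1.90, 1.88, 1.96, 1.15 and 2.03 CPM in nSyb-Gal4 controls, against 10.2, 17.9, 17.7, 12.6 and 11.2 CPM in UAS controls. The nSyb-Gal4 controls were all below the lowest UAS control, with a log2 fold change of -2.97 (SE 0.38, adjusted p 0.000122). CG43291 was at 0.10 ± 0.0381 against 2.73 ± 0.366 CPM, CG15865 at 0.454 ± 0.227 against 6.57 ± 1.24 CPM, and Elo68alpha, a fatty acid elongase, at 0.065 ± 0.056 against 0.948 ± 0.374 CPM.

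**Figure D2:**
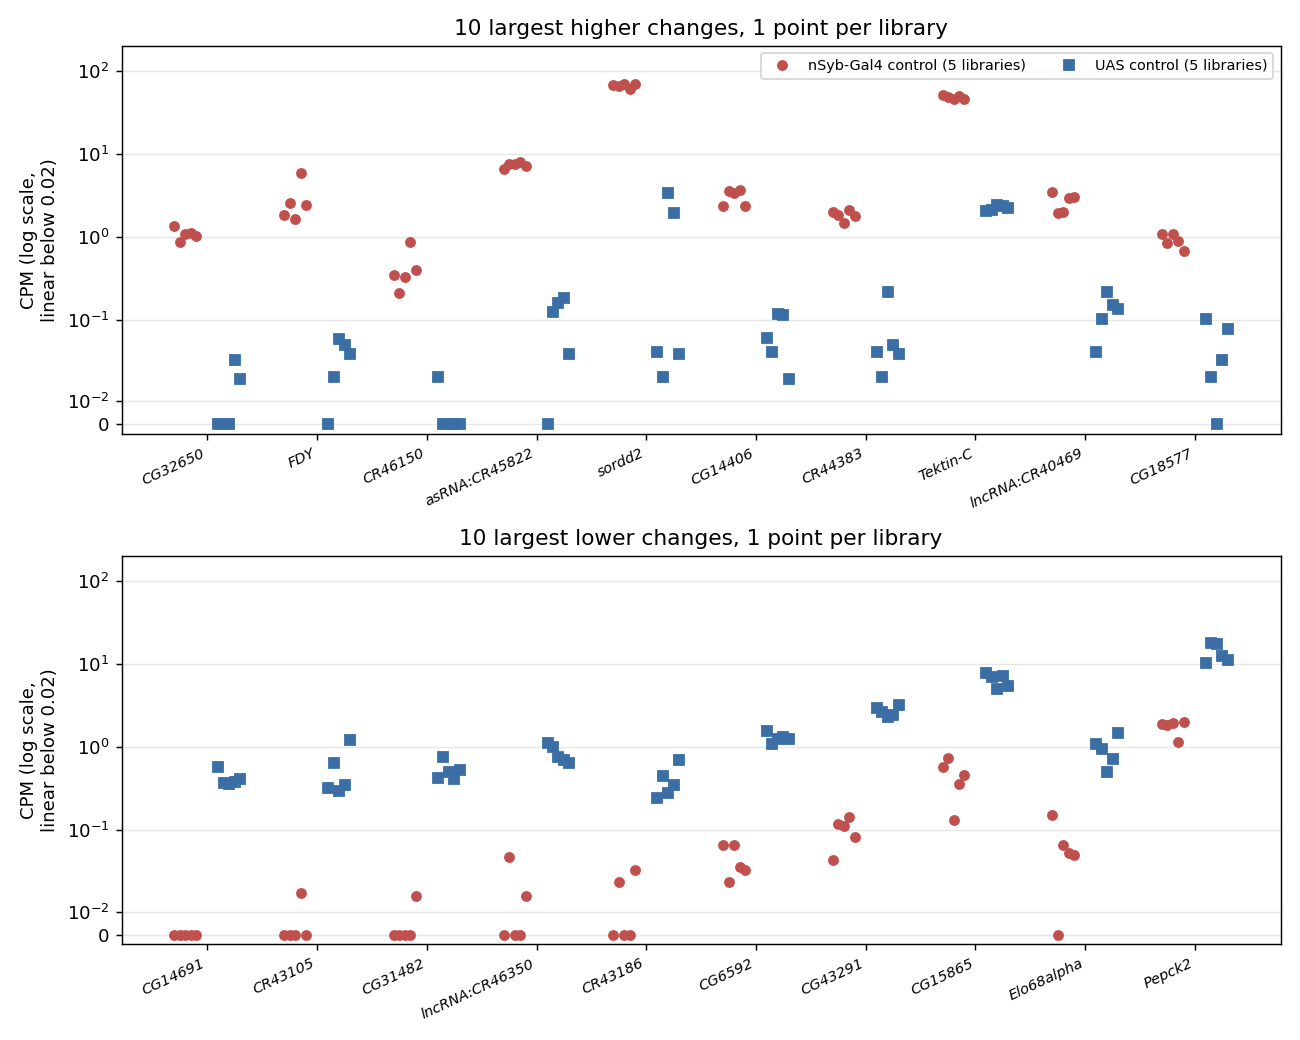
CPM per library (linear below 0.02 CPM and logarithmic above) of the genes with the largest changes, with nSyb-Gal4 control and UAS control libraries as separate points. The 2 groups of points do not touch for any gene; sordd2 shows UAS controls 3 and 4 above the other UAS controls.

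Among genes with a mean of at least 1000 counts, those with the smallest adjusted p included ninaD, Ugt49C1 and, among the lower genes, Cyp4s3, KaiR1D and a5. ninaD (2L:18081628-18083608), a scavenger receptor that takes up carotenoids for the visual pigment, had 30.4, 39.0, 33.2, 32.7 and 35.5 CPM in nSyb-Gal4 controls and 6.76, 6.99, 6.54, 5.95 and 5.72 CPM in UAS controls. The groups were far apart (log2 fold change 2.42, SE 0.08, adjusted p 5.64e-13). Lower with the smallest adjusted p were Cyp4s3 (12.6 ± 0.825 against 28.1 ± 2.19 CPM), the kainate-type glutamate receptor gene KaiR1D (44.1 ± 2.39 against 77.5 ± 4.70 CPM) and a5, of the phosphatidylethanolamine-binding protein family (42.4 ± 2.71 against 82.0 ± 7.28 CPM). Outside the naming rule, and chosen after their values were seen, ncd and phr were as well separated. ncd, a minus-end kinesin of the spindle, had 3.35, 3.35, 3.63, 3.26 and 3.61 CPM against 20.9, 20.3, 18.3, 22.6 and 20.4 CPM, and phr, a DNA photolyase, had 10.3 ± 0.853 against 1.90 ± 0.319 CPM.

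The daily clock separated the groups in its evening genes. In flies the activators Clk and cyc drive per, tim, vri, cwo and Pdp1, and the per and tim proteins feed back on that drive, so that most of these RNAs rise towards evening and early night. In the nSyb-Gal4 control 4 of these 5 targets were lower and none was higher, against 25.6% of all tested genes called; without nSyb-Gal4 control 5 and UAS control 5, 4 were lower and 1 (Pdp1) higher, and without these and UAS control 2, 3 were lower and 1 higher, with cwo at an adjusted p of 0.0579. tim had 114, 130, 154, 102 and 127 CPM in nSyb-Gal4 controls and 291, 315, 331, 373 and 354 CPM in UAS controls. Every nSyb-Gal4 control was below the lowest UAS control, and tim fell by 1.41 on the log2 scale (SE 0.12, adjusted p 3.46e-07).

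vri, a repressor of Clk, had 65.4, 75.9, 112, 55.8 and 76.2 CPM in nSyb-Gal4 controls and 162, 157, 187, 159 and 165 CPM in UAS controls (log2 fold change -1.11, SE 0.15, adjusted p 0.000123). per had 64.5, 76.2, 91.8, 64.8 and 71.5 CPM against 123, 112, 121, 123 and 106 CPM (-0.66, SE 0.09, adjusted p 5.73e-05). In both genes the groups did not overlap, and nSyb-Gal4 control 3 was the highest of its group, as it was in tim. cwo, a repressor of the same targets, fell by 0.34 (SE 0.09, adjusted p 0.0134), with 52.7 to 78.2 CPM in nSyb-Gal4 controls, all just below the 78.8 to 92.8 CPM of UAS controls. Pdp1, the activator of Clk, overlapped between the groups at 396 ± 66.4 and 377 ± 104 CPM (log2 fold change 0.07, adjusted p 0.762).

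Of 12 other clock genes, to and Pdfr rose and Slob and jet fell (33.3% called, beside 25.6% of all genes). to (takeout), an output gene of the fat body and antennae linked to feeding, had 68.6, 70.9, 71.0, 70.2 and 76.2 CPM in nSyb-Gal4 controls and 47.4, 39.1, 34.4, 33.1 and 38.0 CPM in UAS controls (log2 fold change 0.90, SE 0.08, adjusted p 8.73e-07). Pdfr, the receptor of the clock neuropeptide Pdf, was at 66.0 ± 4.91 against 49.3 ± 2.12 CPM, and Slob, a channel-binding output protein, at 454 ± 39.5 against 541 ± 19.8 CPM. jet, an F-box protein of the light response, was at 13.7 ± 0.591 against 15.5 ± 1.01 CPM (adjusted p 0.0213) and lost its call in 3 of 10 fits, each made without 1 library. The core activators Clk (40.3 ± 7.27 against 32.5 ± 5.35 CPM, adjusted p 0.0804) and cyc (30.2 ± 1.15 against 27.7 ± 1.63 CPM, adjusted p 0.0725) did not pass. Nor did the kinases sgg, dco, CkIIalpha and CkIIbeta, the photoreceptor cry or Pdf, with adjusted p from 0.0581 to 0.548. The hour of collection was not tested, since no label gives it.

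**Figure D3:**
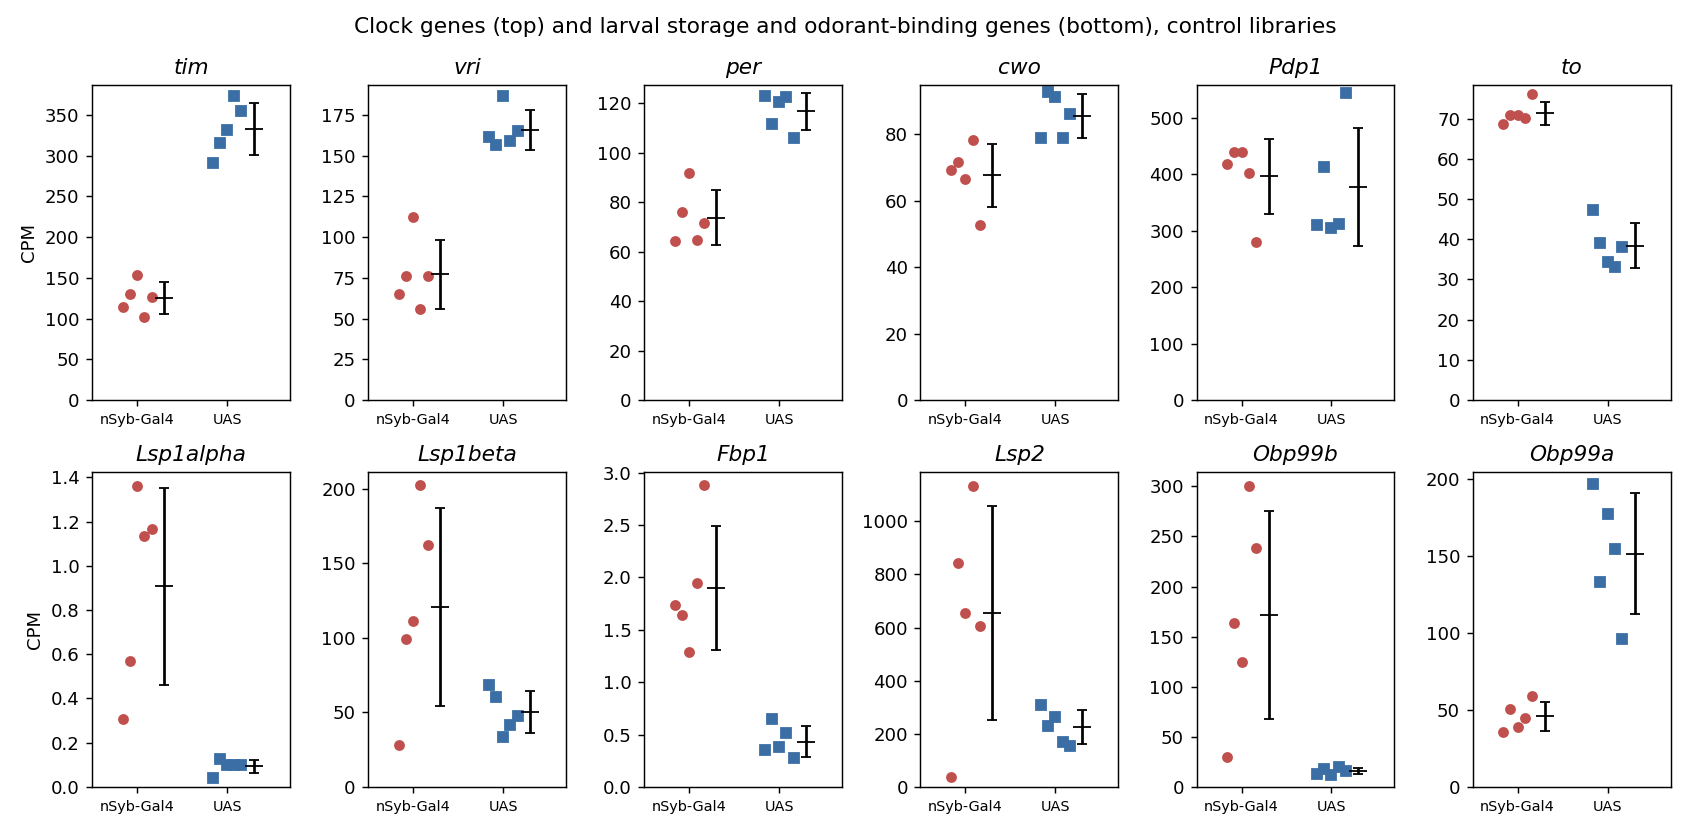
CPM per library (y axes) of clock, storage and Obp99 genes in the nSyb-Gal4 control (left in each panel) and the UAS control (right), each point 1 library. tim, vri and per do not overlap between the groups, while Lsp2 spans 38.3 to 1132 CPM within the nSyb-Gal4 control.

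Larval storage proteins, which the fat body secretes before adult life, were mostly higher. Of 9 genes tested for storage and fat body transport, 6 were higher and none lower (66.7% called, beside 25.6% of all genes). The median log2 fold change was 1.27 against -0.01 over all genes. Without nSyb-Gal4 controls 1 and 5, another pair chosen after seeing the data, 7 were higher. Lsp1alpha, a hexamerin subunit, had 0.309, 0.57, 1.36, 1.13 and 1.17 CPM in nSyb-Gal4 controls and 0.041, 0.125, 0.10, 0.10 and 0.0976 CPM in UAS controls. All nSyb-Gal4 controls were above all UAS controls, with a log2 fold change of 3.27 (SE 0.42, adjusted p 3.51e-05). Fbp1, the hexamerin receptor, had 1.74, 1.64, 1.29, 1.94 and 2.88 CPM against 0.348, 0.643, 0.38, 0.517 and 0.273 CPM (2.14, SE 0.43, adjusted p 0.00262). Fbp2, an alcohol dehydrogenase-like fat body protein, was at 0.487 ± 0.402 against 0.0527 ± 0.0338 CPM, with nSyb-Gal4 control 3 inside the UAS range. Lsp1gamma (1.94 ± 0.175 against 0.885 ± 0.265 CPM) and apolpp, the lipoprotein that carries lipid in the haemolymph (4686 ± 633 against 3322 ± 663 CPM), also rose. apolpp is a gene of chromosome 4, whose genes had mostly positive log2 fold changes, as given further on.

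The most abundant hexamerins varied most between nSyb-Gal4 control libraries. Lsp1beta had 28.0, 99.3, 112, 203 and 162 CPM in nSyb-Gal4 controls and 68.5, 60.6, 33.4, 41.4 and 47.4 CPM in UAS controls (log2 fold change 1.27, SE 0.41, adjusted p 0.0377). Lsp2 had 38.3, 843, 653, 1132 and 606 CPM against 307, 230, 263, 168 and 154 CPM and did not pass (1.54, SE 0.69, adjusted p 0.113). In both genes nSyb-Gal4 control 1 was below every UAS control and the other 4 nSyb-Gal4 controls were above them. The summed fat body markers, of which Lsp2 and Fbp1 are members, had their lowest value, 2289 CPM, in the same library. In bulk RNA, more cells of a type and more RNA per cell cannot be told apart.

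A pair of odorant-binding protein genes of the 99 cluster on 3R went in opposite directions. Obp99b had 29.8, 164, 125, 300 and 238 CPM in nSyb-Gal4 controls and 12.9, 17.9, 12.2, 19.4 and 15.9 CPM in UAS controls (log2 fold change 3.45, SE 0.53, adjusted p 0.00064). Obp99a, chosen after its values were seen, had 35.6, 50.5, 38.9, 45 and 58.9 CPM against 196, 133, 177, 154 and 95.7 CPM (-1.72, SE 0.35, adjusted p 0.00341). Neither gene overlapped between the groups. smp-30, a gene of the regucalcin family also chosen after its values were seen, was at 129 ± 49.3 against 52.7 ± 5.16 CPM, with nSyb-Gal4 control 1 again the lowest of its group at 71.0 CPM. Across the list of odorant-binding proteins 8 of 34 were higher and 7 lower (44.1% called, beside 25.6% of all genes). Among them Obp19b (24.2 ± 3.06 against 13 ± 1.13 CPM) and Obp56f (1.77 ± 0.422 against 0.746 ± 0.284 CPM) were higher. Obp8a (7.94 ± 1.37 against 15.8 ± 2.52 CPM), Obp83b (136 ± 8.83 against 177 ± 12.4 CPM) and Obp19c (7.49 ± 0.299 against 9.16 ± 0.606 CPM) were lower.

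Of the sex-biased genes, those called by edgeR were male-biased or of dosage compensation, and they were higher. The yolk protein gene Yp1, which is on in female fat body, was at 19392 ± 4177 CPM in nSyb-Gal4 controls and 19235 ± 4722 CPM in UAS controls (adjusted p 0.975), and edgeR called 0 of 5 yolk and female-biased genes (1 at an unadjusted p under 0.05, and 1 by DESeq2 and by limma-voom). Of 5 male-biased and dosage compensation genes, Obp99b and msl-2 rose (40%, beside 25.6% of all genes) and none fell. The median log2 fold change was 0.32, with 4 of the 5 positive. Without nSyb-Gal4 control 5 and UAS control 5, 3 were higher and 0 lower, and without these and UAS control 2, 4 and 0. msl-2, a subunit of the male X-chromosome complex, was at 30.9 ± 2.26 against 24.3 ± 2.43 CPM. The male RNA lncRNA:roX1 of the same complex had 409, 464, 381, 474 and 308 CPM in nSyb-Gal4 controls and 285, 413, 258, 283 and 424 CPM in UAS controls. These ranges overlap through nSyb-Gal4 control 5, UAS control 2 and UAS control 5, and roX1 did not pass (adjusted p 0.183). The counts made without these libraries are therefore no separate support for a rise. With roX1 as a covariate, 2 of the 5 genes were higher and 0 lower, with a median log2 fold change of 0.04.

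In the eye, 14 of 27 opsin and phototransduction genes were called (51.9%, beside 25.6% of all genes), 9 higher and 5 lower. Of the inner photoreceptor opsins 3 fell. Rh5, the blue-sensitive opsin, had 249, 239, 247, 238 and 285 CPM in nSyb-Gal4 controls and 388, 380, 401, 419 and 370 CPM in UAS controls (log2 fold change -0.64, SE 0.05, adjusted p 2.84e-07). Rh6, the green-sensitive opsin, was at 266 ± 25.1 against 368 ± 28.0 CPM (-0.47) and Rh3 at 699 ± 40.4 against 791 ± 30.3 CPM (-0.18), whereas Rh4, the other ultraviolet opsin, rose to 838 ± 76.6 against 715 ± 55.7 CPM. ninaE, the opsin of the outer photoreceptors, and trp, the main light-gated channel, did not pass (adjusted p 0.502 and 0.877). Genes of carotenoid use were split, with ninaD higher and santa-maria, a scavenger receptor of the same pathway, lower at 163 ± 9.33 against 272 ± 11.8 CPM (-0.74, adjusted p 5e-08); ninaB, the oxygenase that cleaves carotenoids to retinal, was lower at 103 ± 6.90 against 136 ± 12.1 CPM.

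Downstream of the opsins, norpA, the phospholipase C of the light response, had 1524, 1454, 1614, 1267 and 1282 CPM in nSyb-Gal4 controls and 793, 998, 902, 802 and 1163 CPM in UAS controls (log2 fold change 0.62, SE 0.11, adjusted p 0.000945). The groups did not overlap. rdgB, a phosphatidylinositol transfer protein, was at 287 ± 34.4 against 187 ± 39.7 CPM, inaC, the eye protein kinase C, at 783 ± 48.7 against 636 ± 36.9 CPM, and inaD, the scaffold that holds the complex, at 836 ± 63.4 against 676 ± 51.1 CPM.

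Detoxification enzymes were called often and in both directions. Of 74 cytochrome P450 genes 18 were higher and 15 lower (44.6% called, beside 25.6% of all genes), with a median log2 fold change of -0.02. Cyp4ac3 (5.58 ± 0.638 against 1.93 ± 0.472 CPM), Cyp4e1 (4.20 ± 0.386 against 1.80 ± 0.181 CPM) and Cyp9f3 (20.3 ± 0.953 against 12.3 ± 0.77 CPM) rose. Cyp6a23 (20.0 ± 0.65 against 44.2 ± 2.90 CPM), Cyp6g2 (3.10 ± 0.142 against 6.26 ± 0.835 CPM) and Cyp4s3 fell. In these 6 genes no library of one group lay within the other, but P450 genes form clusters of related copies whose reads may be shared, and Cyp4e1, Cyp6g2 and Cyp4s3 overlap a neighbouring gene.

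Of 32 glutathione transferases 6 were higher and 7 lower (40.6% called, beside 25.6% of all genes). GstZ2 (46.7 ± 3.18 against 30.1 ± 2.67 CPM), GstT4 (126 ± 18.5 against 92.3 ± 5.30 CPM) and GstD3 (30.2 ± 4.08 against 22.8 ± 1.23 CPM) rose. The 3 lower genes with the smallest adjusted p were neighbours of the GstE cluster on 2R: GstE5 (4.19 ± 0.456 against 8.91 ± 1.03 CPM), GstE1 (60.0 ± 6.36 against 100.1 ± 9.76 CPM) and GstE4 (49.5 ± 5.68 against 83.0 ± 9.19 CPM). Of 24 UDP-glycosyltransferases, which attach sugars to foreign and internal compounds, 7 were higher and 3 lower (41.7% called, beside 25.6% of all genes). The neighbours Ugt49C1 and Ugt49B1 (2R:21212880-21217779) rose together: Ugt49C1 had 75.8, 83.8, 76.2, 93.8 and 87.8 CPM in nSyb-Gal4 controls and 29.0, 29.4, 27.3, 27.1 and 23.2 CPM in UAS controls (log2 fold change 1.62, SE 0.07, adjusted p 7.95e-11), and Ugt49B1 had 141 ± 22.3 against 52.4 ± 4.23 CPM. Ugt35E1 was higher as well (0.698 ± 0.197 against 0.176 ± 0.0522 CPM), and Ugt37D1 (34.7 ± 4.07 against 52.7 ± 6.11 CPM), Ugt37C2 (0.112 ± 0.0406 against 0.301 ± 0.117 CPM) and Ugt36E1 (5.77 ± 0.687 against 7.03 ± 0.756 CPM, lost in 6 of 10 fits) were lower.

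Cuticle proteins of the Cpr family, which bind chitin, were mostly lower where called, 12 of 39 against 5 higher. In all 43.6% were called, beside 25.6% of all genes. Cpr92F had 37.6, 50.8, 44.3, 44.2 and 48.6 CPM in nSyb-Gal4 controls and 129, 104, 101, 132 and 131 CPM in UAS controls (log2 fold change -1.40, SE 0.10, adjusted p 3.71e-08). Cpr76Bc (9.98 ± 1.3 against 18 ± 0.627 CPM) and Cpr49Aa (1.62 ± 0.351 against 3.06 ± 0.17 CPM) fell too, while Cpr50Ca (0.835 ± 0.20 against 0.371 ± 0.0516 CPM), Cpr11A (15.3 ± 2.30 against 10.4 ± 2.16 CPM) and Cpr100A (507 ± 22.2 against 425 ± 40.3 CPM) rose.

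Immune effector genes were not called: by edgeR 0 of 14 antimicrobial peptide genes and 0 of 12 Bomanins passed, with 0 and 1 at an unadjusted p under 0.05, and DESeq2 and limma-voom called none. The antimicrobial peptides summed to 38.9 to 61.5 CPM in nSyb-Gal4 controls and 47.4 to 75.8 CPM in UAS controls, so that both control groups were at a low level. Among Turandot and Tep genes, the first a family of secreted stress peptides and the second complement-like proteins, 3 of 8 rose. That is 37.5% called, beside 25.6% of all genes. TotX had 25.1, 31.5, 42.1, 37.2 and 27.3 CPM in nSyb-Gal4 controls and 13.5, 11.3, 5.00, 7.05 and 12.8 CPM in UAS controls (log2 fold change 1.72, SE 0.24, adjusted p 0.000213). TotA was at 148 ± 40.6 against 56.8 ± 17.2 CPM (adjusted p 0.023, lost in 3 of the 10 fits without a library) and Tep4 at 361 ± 16.5 against 296 ± 31.2 CPM. GNBP1, a recognition protein of Gram-positive bacteria, fell to 17.3 ± 1.48 against 21.9 ± 1.3 CPM. Of 20 heat shock and chaperone genes 4 fell and none rose (20% called, near the 25.6% of all genes), among them Hsp23 (14.4 ± 0.952 against 18.1 ± 2.83 CPM), the mitochondrial chaperonin Hsp60A (370 ± 29.5 against 424 ± 25 CPM, lost in 8 of 10 fits) and Hsp70Ba, which had at most 5 counts in an nSyb-Gal4 control library and has near-identical copies.

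In the metabolic lists the shares called were 28.6% of 7 amylase, maltase and protease genes, 18.8% of the lipid genes and 14.3% of the glycolysis genes, beside 25.6% of all genes. The amylase genes Amy-d (29.6 ± 9.88 against 9.15 ± 2.05 CPM) and Amy-p (13 ± 4.98 against 3.51 ± 0.416 CPM), near-identical copies on 2R whose reads may be shared, rose. Of 16 lipid genes mino, an acyltransferase of glycerolipid synthesis (159 ± 26.0 against 104 ± 13.2 CPM), mdy, which makes triglyceride (63.9 ± 9.80 against 46.4 ± 6.90 CPM), and the transcription factor SREBP (327 ± 13.4 against 279 ± 15.8 CPM) rose. Of 14 glycolysis genes Gpdh1 (1496 ± 68.5 against 1228 ± 93.6 CPM) and Ald1 (2332 ± 205 against 1977 ± 112 CPM) rose, Ald1 losing its call in 1 of 10 fits, and none of either list fell.

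Of 18 voltage-gated ion channel genes 11 were higher and none lower, beside 11.8% of all genes higher and 13.8% lower, with a median log2 fold change of 0.30. Leaving out 1 library gave from 5 higher, without nSyb-Gal4 control 2 or UAS control 1, to 13 higher, without nSyb-Gal4 control 5, and at most 1 lower. eag, a potassium channel of neurons, had 120, 131, 111, 120 and 94.4 CPM in nSyb-Gal4 controls and 57.3, 75.1, 53.1, 54.9 and 88.8 CPM in UAS controls (log2 fold change 0.81, SE 0.13, adjusted p 0.000371). The potassium channel Sh was at 379 ± 58.2 against 263 ± 56.4 CPM, the T-type calcium channel Ca-alpha1T at 283 ± 38.9 against 212 ± 30.7 CPM, and the presynaptic calcium channel cac at 141 ± 18.8 against 102 ± 21.1 CPM. Outside the naming rule, the sodium channel para was at 229 ± 40.3 against 154 ± 40.0 CPM and the calcium-activated potassium channel slo at 278 ± 41.3 against 206 ± 41.6 CPM. In Sh, para and slo the groups overlapped, with nSyb-Gal4 control 5 the lowest of its group and UAS controls 2 and 5 above it. Across the list, the summed level was 3438, 3825, 3612, 3446 and 2755 CPM in nSyb-Gal4 controls and 2404, 2909, 2485, 2406 and 3251 CPM in UAS controls.

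Transcript length moved with this group of genes. The ion channel transcripts had a median exon length of 10558 nt, and among the 476 genes over 8000 nt 27.5% were higher and 1.26% lower, against 9.33% higher and 17.6% lower among the 3420 genes of 1000 to 2000 nt. The slope on log2 length was taken from log2 CPM relative to the median of each gene over the 15 libraries of the neuron dataset. That slope was 0.00328, 0.0429, 0.0775, -0.0111 and -0.0567 in nSyb-Gal4 controls and -0.0546, -0.0157, -0.0438, -0.0603 and 0.00638 in UAS controls. Thus nSyb-Gal4 control 5 and UAS control 5 lay on the side of the other group. With that slope as a covariate, 4 ion channel genes were higher and 3 lower, and with roX1 as a covariate 1 and 1; without nSyb-Gal4 control 5 and UAS control 5, 13 were higher and 0 lower, as also without UAS control 2 besides. In an edgeR fit of all 30 libraries 0 were called, against 12 each by DESeq2 and limma-voom on the neuron dataset. The covariates were chosen after seeing the data, and the part of length, RNA quality or neuron content in the result was not tested.

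Of 23 synaptic vesicle and active zone genes cac and the calcium channel subunit stj were higher and none was lower (8.7% called, beside 25.6% of all genes). stj was at 233 ± 25.3 against 197 ± 15.5 CPM, with its call lost in 6 of 10 fits. The count of 2 higher was 1 without nSyb-Gal4 control 2 or 4 or UAS control 1 or 4, 16 without UAS control 5, 8 by DESeq2, 7 by limma-voom, 18 without nSyb-Gal4 control 5 and UAS control 5, 17 without these and UAS control 2, and 0 in the fit of all 30 libraries. Of 10 nicotinic receptor subunits 2 were higher and 2 lower (40% called, beside 25.6% of all genes). nAChRalpha3 (29.9 ± 4.98 against 21.4 ± 5.60 CPM) and nAChRalpha6 (105 ± 17.3 against 78.2 ± 16.9 CPM) were higher, each losing its call in 7 of 10 fits. nAChRalpha2 (47.6 ± 1.41 against 53.8 ± 1.98 CPM) and nAChRbeta3 (41.3 ± 2.53 against 50.9 ± 5.28 CPM, lost in 8 of 10 fits) were lower. DESeq2 called 6 nicotinic subunits higher and 2 lower, and without nSyb-Gal4 control 5 and UAS control 5, 7 were higher and 2 lower. Leaving out 1 library gave 0 to 6 higher and 1 to 2 lower. With roX1 or the length slope as a covariate 0 were higher and 1 lower, and the fit of all 30 libraries called 0. Of 20 GABA and monoamine genes 1 was higher and 2 lower (15% called, beside 25.6% of all genes). ple, the tyrosine hydroxylase that begins dopamine and cuticle catechol synthesis, had 224, 288, 208, 312 and 241 CPM in nSyb-Gal4 controls and 167, 149, 137, 126 and 152 CPM in UAS controls (log2 fold change 0.80, SE 0.11, adjusted p 5.85e-05). Ddc, the next enzyme of that pathway, fell to 178 ± 12.5 against 213 ± 13.8 CPM (lost in 2 of 10 fits), and the serotonin transporter SerT to 32.4 ± 1.29 against 39.0 ± 2.03 CPM.

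Of 32 neuropeptide genes 9 were lower and 2 higher (34.4% called, beside 25.6% of all genes). Leaving out 1 library gave 6 to 10 lower and 0 to 5 higher, with 5 higher without UAS control 5. Crz, the corazonin precursor, had 16.1, 12.6, 12.6, 12.3 and 15.9 CPM in nSyb-Gal4 controls and 20.3, 20.5, 26.3, 21.1 and 18.6 CPM in UAS controls (log2 fold change -0.62, SE 0.10, adjusted p 0.000249). Mip, a myoinhibiting peptide (33.8 ± 2.61 against 40.4 ± 1.45 CPM), and Dsk, drosulfakinin (27.7 ± 2.14 against 35.5 ± 3.37 CPM), fell as well. Dh31 (64.3 ± 6.64 against 50.8 ± 9.18 CPM) and AstC (50.3 ± 4.81 against 42.2 ± 5.01 CPM) rose, with calls lost in 2 and 4 of 10 fits. In the fit of all 30 libraries no neuropeptide gene was called.

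**Figure D4:**
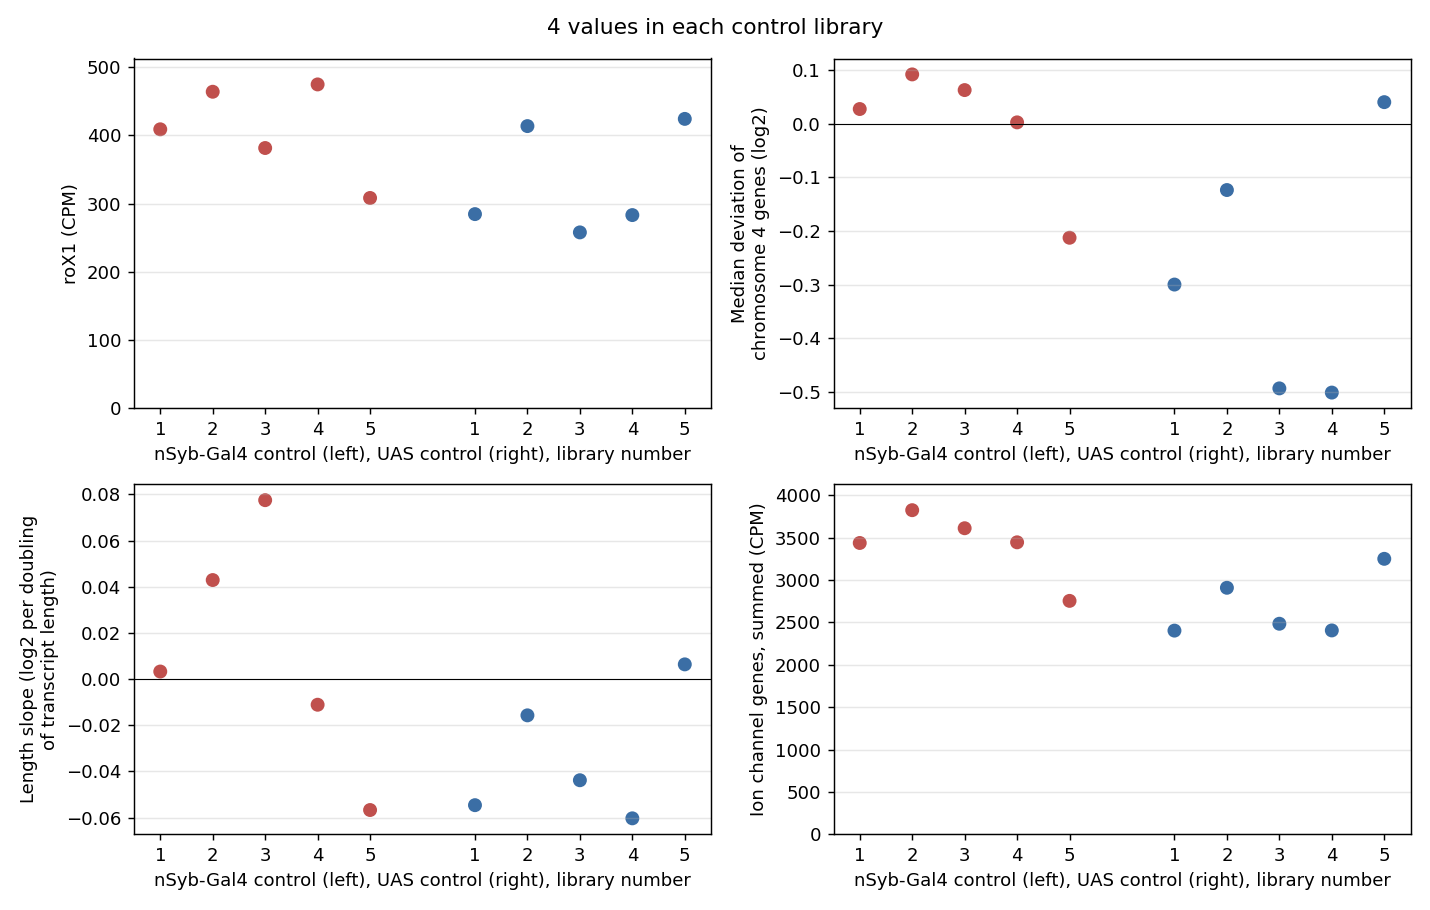
4 values (one panel each) in each nSyb-Gal4 control library (left) and UAS control library (right), each point labelled with its library number. In these panels nSyb-Gal4 control 5 lies towards the UAS controls, and UAS controls 2 and 5 towards the nSyb-Gal4 controls.

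Of 84 cytosolic ribosomal protein genes 30 were lower and none higher (35.7% called, beside 25.6% of all genes). Of the 84, 83 had a negative log2 fold change, and the median was -0.20. RpS2 had 597, 569, 601, 665 and 785 CPM in nSyb-Gal4 controls and 909, 819, 879, 879 and 682 CPM in UAS controls (log2 fold change -0.37, SE 0.09, adjusted p 0.00552), overlapping through nSyb-Gal4 control 5 and UAS control 5. RpL27A was at 586 ± 98.4 against 777 ± 114 CPM. The count of 30 became 0 in a fit of all 30 libraries, 19 with DESeq2's size factors in edgeR, 3 with the length slope as a covariate, 3 with roX1, 74 without nSyb-Gal4 control 5 and UAS control 5 and 75 without these and UAS control 2. Leaving out 1 library gave from 3 lower, without nSyb-Gal4 control 3, to 62, without nSyb-Gal4 control 5. Of 71 mitochondrial ribosomal proteins 25 were lower and 2 higher (38% called, beside 25.6% of all genes). mRpL50 was at 19.1 ± 1.13 against 24.5 ± 1.47 CPM and mRpL33 at 10.8 ± 1.03 against 8.18 ± 0.876 CPM. The count of 25 lower became 0 in the fit of all 30 libraries, 5 with roX1 and 6 with the length slope, and ran from 9 without UAS control 3 or 4 to 35 without nSyb-Gal4 control 5. Of 63 respiratory chain genes of the nucleus edgeR called 0, DESeq2 1 (higher) and limma-voom 0, with 11 at an unadjusted p under 0.05 and 55 negative. Without nSyb-Gal4 control 5 and UAS control 5, 34 were lower and 2 higher, without these and UAS control 2, 42 and 3, without nSyb-Gal4 controls 1 and 5, 24 and 0, and without nSyb-Gal4 control 5 alone 25 were lower. Of 31 proteasome genes only Rpt5 rose (71.2 ± 2.48 against 64.7 ± 1.86 CPM).

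Transcripts of the mitochondrial genome were uneven between libraries. mt:ND5 had 691, 883, 804, 758 and 194 CPM in nSyb-Gal4 controls and 146, 196, 159, 148 and 582 CPM in UAS controls (log2 fold change 1.44, SE 0.46, adjusted p 0.0383), and 8 of the 10 fits that left out a library lost the call. The 5th library of each group lay within the range of the other group, and UAS control 2 was just above nSyb-Gal4 control 5. The summed mitochondrial transcripts had the same pattern, with 94281, 100714, 90320, 99264 and 46725 CPM against 19084, 51735, 14765, 17449 and 102056 CPM. mt:ATPase8, which overlaps mt:ATPase6, and mt:ND6 were lower, mt:ATPase8 with 0.19 to 0.483 CPM against 0.436 to 9.13 CPM. mt:ND6 lost its call in 7 of 10 fits, and limma-voom called neither (adjusted p 0.0624 and 0.136), with 8 mitochondrial genes higher and 0 lower. Without nSyb-Gal4 control 5 and UAS control 5, 11 of 15 mitochondrial genes were higher and 3 lower, without these and UAS control 2, 11 and 4, and leaving out 1 library gave 0 to 11 higher.

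Of 23 autophagy genes, the pathway that Bchs serves, 3 were higher and 2 lower, a share near that of all genes. Atg5, of the conjugation machinery, had 20.2, 21.6, 21.7, 21.0 and 19.6 CPM in nSyb-Gal4 controls and 18.3, 17.5, 16.5, 16.7 and 18.9 CPM in UAS controls (log2 fold change 0.24, SE 0.05, adjusted p 0.00159). Its partner Atg16 was lower at 16.7 ± 0.378 against 18.8 ± 0.593 CPM (-0.18, adjusted p 0.00394). Neither overlapped between the groups. Atg8a, the protein that coats autophagosomes (783 ± 57.3 against 664 ± 83.9 CPM), Atg18b (74.5 ± 4.19 against 66.5 ± 5.64 CPM) and Pi3K59F, the lipid kinase Vps34 (39.1 ± 3.97 against 45.9 ± 4.75 CPM), passed but lost their calls in 7, 8 and 8 of 10 fits.

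Of 565 long noncoding and antisense RNAs tested, 60 were higher and 45 lower (18.6% called, below the 25.6% of all genes). Besides those given above, lncRNA:CR44300 was at 2.47 ± 0.20 against 0.855 ± 0.14 CPM, asRNA:CR43480 at 6.07 ± 0.507 against 14.8 ± 2.05 CPM and lncRNA:CR45680 at 0.302 ± 0.132 against 1.19 ± 0.345 CPM. Among markers of other cell types, the haemocyte receptor NimC1 rose (55.2 ± 1.17 against 35.5 ± 4.33 CPM) with crq, a scavenger receptor (189 ± 5.09 against 162 ± 7.52 CPM), and the 5 haemocyte markers summed to 574 to 649 CPM against 515 to 598 CPM. The glial transporter Mdr65 fell to 105 ± 10.9 against 132 ± 6.42 CPM, the only 1 of 7 glial markers called. Of muscle genes Act88F, the flight muscle actin, fell to 19.1 ± 2.76 against 36.9 ± 5.93 CPM, while wupA (724 ± 29.3 against 617 ± 49.0 CPM, lost in 1 of 10 fits) and bt (355 ± 46.0 against 249 ± 29.0 CPM, lost in 6 of 10 fits) rose. The shares called were 40% of the 5 haemocyte, 14.3% of the 7 glial and 37.5% of the 8 muscle markers, beside 25.6% of all genes. bt lies on chromosome 4, has 28019 nt of exons and was not called by edgeR with the length slope as a covariate (adjusted p 0.177).

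By chromosome, the shares called differed. Of the 98 tested genes of the small chromosome 4, 35 were higher and 2 lower (37.8% called), with a median log2 fold change of 0.32, against 24.3% to 24.9% called on 2L, 2R, 3L and 3R and 29.5% on X, with medians between -0.02 and 0.00. The median exon length of the chromosome 4 genes was 3681 nt, against 1889 to 2270 nt on those arms. Among genes up to 4000 nt, 25.9% were higher on chromosome 4 (median log2 fold change 0.29), against 9.64% elsewhere (-0.04). Among genes over 4000 nt, 47.7% were higher on chromosome 4 (0.36), against 19.4% elsewhere (0.09). The part of length in the chromosome 4 shift was not tested. The deviation of chromosome 4 genes was taken from their median over the 15 libraries of the neuron dataset, on the log2 scale. Its median was 0.03, 0.09, 0.06, 0.00 and -0.21 in nSyb-Gal4 controls and -0.30, -0.12, -0.49, -0.50 and 0.04 in UAS controls. The ranges overlapped through nSyb-Gal4 control 5, UAS control 2 and UAS control 5, the libraries that also overlapped in roX1. Ekar, a kainate receptor of photoreceptors chosen after its values were seen, had 81.3, 80.7, 78.9, 75.2 and 74.3 CPM in nSyb-Gal4 controls and 51.4, 60.7, 38.9, 37.1 and 57.9 CPM in UAS controls (0.67, SE 0.11, adjusted p 0.000636).

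The glia dataset offered the same kind of comparison in other libraries, the repo-Gal4 control against the UAS control of that dataset. There 99 of 11149 genes (0.888%) were called, 51 higher and 48 lower in the repo-Gal4 control. Of 10678 genes tested in both datasets, 69 were called in both with the same direction, 33 higher and 36 lower. These were 2.52% of the 2734 called with nSyb-Gal4 and 75% of the 92 called with repo-Gal4. Over all genes tested in both, 25.6% were called with nSyb-Gal4 in either direction. Of the 69, 42 changed at least 2-fold in both, and 12 differed between the comparisons by the direct test given below. Only cyr and CG8757 were called in opposite directions. Across genes the log2 fold changes had a Pearson r of 0.485 and a Spearman rho of 0.39, as a description, since genes are not independent replicates.

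Shared genes were among those near 0 in 1 group. sordd2 had log2 fold changes of 5.89 with nSyb-Gal4 and 6.30 with repo-Gal4, CR44383 of 4.61 and 3.64, and CG18577 of 4.23 and 5.43. CG14691, CR43105, CG31482 and CG9698 were lower in both. Outside the naming rule, ncd was lower by nearly the same amount in both comparisons, with log2 fold changes of -2.57 and -2.49, and Lsp1alpha was higher in both at 3.27 and 2.89. DNAlig3, a DNA ligase, was at 0.84 and 0.86. The cuticle gene Ccp84Ag was at 1.43 and 2.81, which differed by edgeR's test of the difference (adjusted p 3.43e-05). Both UAS control groups carry the same genotype label, and the part of alleles specific to that line in the shared genes was not tested.

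Tested directly, the nSyb-Gal4 effect differed from the repo-Gal4 effect in 102 of 11137 genes (0.916%). Tektin-C, 4.43 higher with nSyb-Gal4, was at -0.34 with repo-Gal4 (difference 4.79, adjusted p 3.96e-11), and ninaD was at 2.42 and 0.75 (difference 1.68, adjusted p 7.23e-06). phr was at 2.43 and -0.37 (adjusted p 0.000133). w was higher in both, by 1.41 and 4.79, with 202 CPM in repo-Gal4 and 7.27 CPM in UAS controls of the glia dataset (difference -3.37, adjusted p 1.43e-13). Of the clock genes only per differed by this test (-0.66 and 0.14, adjusted p 0.00268). tim was at -1.41 and -0.04 and vri at -1.11 and 0.19, with adjusted p for the difference of 0.366 and 0.232. In the ion channel and cytosolic ribosomal lists no gene was called with repo-Gal4, with median log2 fold changes of -0.06 and -0.60.

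**Figure D5:**
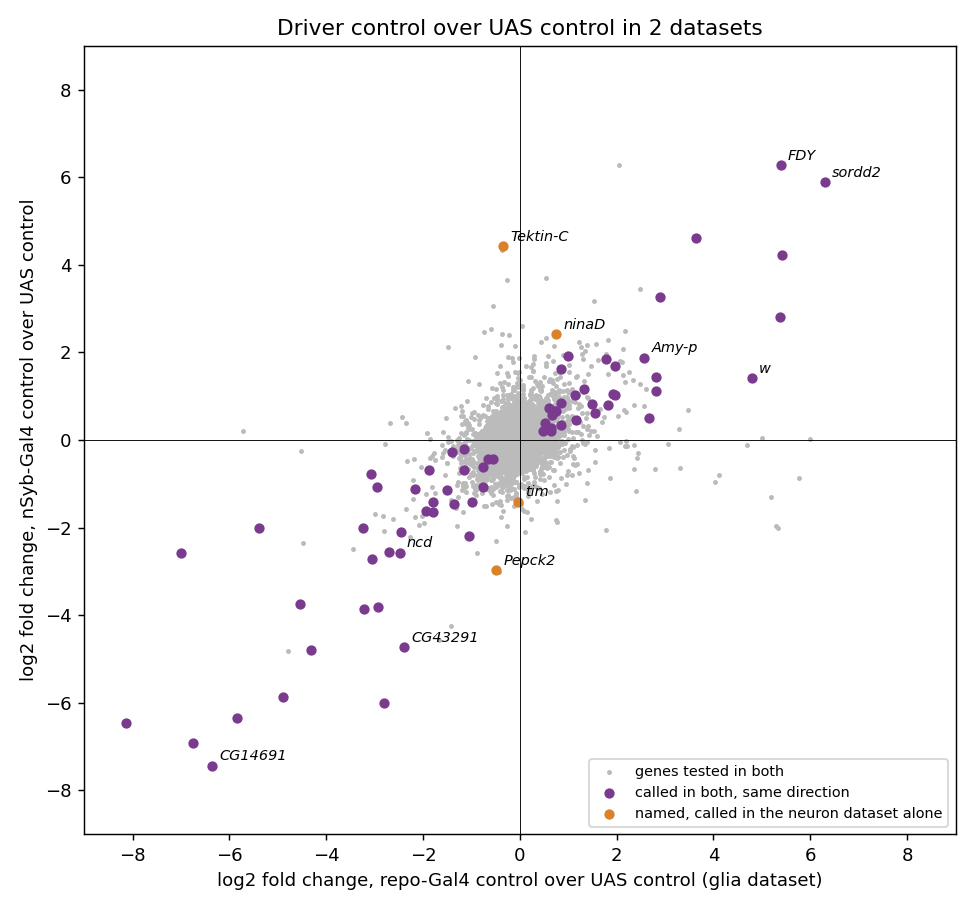
Log2 fold change of each of 10678 genes with nSyb-Gal4 (on one axis) and with repo-Gal4 (on the other), each against the UAS control of its own dataset. Genes called in both comparisons with the same direction are marked. Tektin-C lies far along the nSyb-Gal4 axis, at -0.34 on the repo-Gal4 axis.

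The overexpression heads, which carry both transgenes, can be set beside the 2 controls for the same genes as levels only, since both controls enter their comparisons. sordd2 was at 66.3 ± 3.98 CPM in neuronal overexpression, 66.5 ± 3.47 CPM in the nSyb-Gal4 control and 1.09 ± 1.54 CPM in the UAS control, and Tektin-C at 57.4 ± 3.80 CPM in neuronal overexpression, 48.4 ± 2.63 CPM in the nSyb-Gal4 control and 2.24 ± 0.148 CPM in the UAS control. CG14691, at 0 in the nSyb-Gal4 control, was at 0.337 ± 0.12 CPM with both transgenes and 0.42 ± 0.0875 CPM in the UAS control. Pepck2 was at 20.6 ± 10.7 CPM with both transgenes, 1.78 ± 0.358 CPM in the nSyb-Gal4 control and 13.9 ± 3.64 CPM in the UAS control. tim was at 130 ± 21.0 CPM with both transgenes, 126 ± 19.5 CPM in the nSyb-Gal4 control and 333 ± 32.2 CPM in the UAS control. Among the genes with the largest changes, CG15865 was lowest with both transgenes, at 0.033 ± 0.0235 CPM, against 0.454 ± 0.227 CPM in the nSyb-Gal4 control and 6.57 ± 1.24 CPM in the UAS control.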

How the data were processed

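Adult fly heads were profiled with RNA-seq (TruSeq v2 libraries, per the labels' protocols). The authors deposited raw read counts per gene for each library; per the submitters' processing notes STAR, HTSeq and the BDGP6 build were used, while versions, annotation release and strand use are not given in the sources used here. HTSeq's special counters (9.02% to 10.3% of a control library's total) were left out of library sizes. Gene names and coordinates were matched by ID in the Ensembl BDGP6.54 annotation, for 17626 of 17753 genes.

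The 15 libraries of the neuron dataset (3 groups) were fitted together with edgeR 4.0.16 in R 4.3.3: filterByExpr, TMM, glmQLFit and glmQLFTest with robust trended dispersion, Benjamini-Hochberg adjustment over 10778 genes, called at an adjusted p under 0.05. CPM values use TMM-scaled library sizes. The glia dataset was fitted in the same way, and the difference between comparisons over 30 libraries. bchs and w also had an exact permutation test. Length slopes and principal components used log2 CPM with a pseudocount of 0.5. A group with at most 3 counts in each library is given as a bound against 3 counts per library. The code was tested on simulated data.

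Named by rule were bchs and w; the 10 higher and 10 lower called genes of largest change with a mean of at least 10 counts and no overlap; the 3 of smallest adjusted p each way with a mean of at least 1000 counts; up to 3 members per direction of 40 gene lists and all clock genes; and the 4 each way of largest change in both comparisons. The comparison, members and lists were chosen with earlier results of these data known. Cyclophilins and the reductase Cpr were dropped from lists made by symbol prefix, and 5 list entries had no match. No list or set test was run: lists are described by counts and medians.

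Replicates of a group differed by more than counting noise (lowest chi-square per degree of freedom 18.13), so none was merged. Depth was even, and counting error was small beside the spread between libraries except for genes near the floor. Alternatives were DESeq2 1.42.0, its size factors, limma 3.58.1 (voom), other filters, samples in the fit, a replicate block and leaving out each library. Same-numbered libraries did not deviate together (r between -0.63 and 0.139), so numbers were not taken as pairs. Figures were drawn with matplotlib 3.10.9 in Python 3.11.15.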

Additional observations from a re-analysis of the deposited data

Results flagged for a closer look

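Values were flagged by a gap that chance alone gives in about 1 of 20 groups of normally distributed values. In 284 groups of 5 libraries (142 named genes in each of the 2 groups), 25 values lay apart from the other 4 of their group. Of these, 9 were in nSyb-Gal4 control 5: Act88F at 23.8 CPM, CkIIbeta at 110 CPM, mt:ND5 at 194 CPM, Rh5 at 285 CPM, Hsp60A at 423 CPM, Pdp1 at 281 CPM, Dh31 at 52.9 CPM, Atg18b at 67.1 CPM and CG31482 at 0.0166 CPM. Another 6 were in nSyb-Gal4 control 4: mino at 204 CPM, GstT4 at 159 CPM, Pepck2 at 1.15 CPM, FDY at 5.85 CPM, CR46150 at 0.881 CPM and CR43105 at 0.018 CPM. In UAS control 5 they were w at 6.17 CPM, mt:ND5 at 582 CPM, Hsp60A at 381 CPM and GNBP1 at 19.6 CPM. UAS control 1 stood apart in RpLP0-like at 22.3 CPM, CG14691 at 0.573 CPM and CR46150 at 0.0205 CPM, UAS control 2 in Cyp4e1 at 2.12 CPM, and UAS control 3 in vri at 187 CPM and CR44383 at 0.22 CPM. For CR46150 the value in UAS control 1 was 1 count, beside 0 in the other UAS controls. The flags of CG31482 and CR43105 were also near the floor, so the stated rate does not hold for these 3 genes.

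The log2 effect of nSyb-Gal4 minus that of repo-Gal4, each against the UAS control of its dataset, passed edgeR's test of the difference for 17 named genes. It was negative for w (-3.37), Pepck2 (-2.46), CG43291 (-2.33), Cyp6g2 (-1.03), Cyp6a23 (-0.94), per (-0.79) and Cpr76Bc (-0.64). It was positive for GstZ2 (0.56), Ugt49C1 (0.78), Cyp4e1 (1.27), ninaD (1.68), lncRNA:CR45680 (3.42), CG32650 (4.27), lncRNA:CR40469 (4.71), Tektin-C (4.79), asRNA:CR45822 (5.38) and CG14406 (6.88). For lncRNA:CR45680, CG32650, CR40469, CR45822 and CG14406 a group of one dataset was near 0, so the size of its difference depends on few counts.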

How the results depend on the processing

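The count of 2759 genes was within 1.5 times with DESeq2 (3179), DESeq2's size factors (2724), limma-voom (2913), a mean of at least 50 counts (2567), all genes with a count (2496) and the 10 control libraries alone (1926). It was 367 with all 30 libraries in 1 fit, of which 363 were among the 2759, and 201 in a test against a 1.5-fold change. Without 1 library it ran from 1866 to 3743. With alternatives chosen after seeing the data it was 1604 with roX1 and 1670 with the length slope as covariates, 4424 without nSyb-Gal4 control 5 and UAS control 5, 4594 without these and UAS control 2, and 3150 without nSyb-Gal4 controls 1 and 5.

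With the replicate number as a block the count was 2238, against 54 with repo-Gal4, 34 shared and 84 different between the comparisons; the numbers did not pair the libraries. With DESeq2 the repo-Gal4 comparison gave 272 genes, 163 shared and 190 different; a mean of at least 50 counts gave 42 shared. Without 1 library these counts ran from 64 to 291, from 42 to 172 and from 87 to 280, the highest without UAS control 2 of the glia dataset, and without both glia libraries with low length slopes, also chosen after seeing the data, they were 484, 273 and 367.

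List medians that moved were, with the 10 control libraries, antimicrobial peptides (-0.6042) and germ line markers (-1.593); with roX1, other clock genes (0.08272), antimicrobial peptides (-1.37), Bomanins (-0.03985), male-biased genes (0.04206), noncoding RNAs (-0.04629) and photoreceptor markers (0.14); with the length slope, other clock genes (0.08247), antimicrobial peptides (0.4179), Bomanins (0.3223) and gut markers (0.1555). Without nSyb-Gal4 control 5 and UAS control 5 they were other clock genes (0.2421), nicotinic receptors (0.6504), mitochondrial genome (1.892), noncoding RNAs (0.1034), muscle (0.2207) and germ line markers (-1.384). Without these and UAS control 2 they were other clock genes (0.2918), odorant-binding proteins (-0.04277), male-biased genes (0.6571), glycolysis (-0.07962), neuropeptides (-0.01651), synaptic genes (0.3731), ion channels (0.5558), nicotinic receptors (0.7809), GABA and monoamine genes (0.09119), respiratory chain (-0.2113), mitochondrial genome (2.284), noncoding RNAs (0.12) and neuron markers (0.4985), and without nSyb-Gal4 controls 1 and 5 opsins (-0.01777), lipid genes (0.203) and germ line markers (-1.335). Without 1 library, medians ran from 0.02225 to 0.1169 for opsins, -0.01064 to 0.06516 for odorant-binding proteins, 0.08522 to 0.2246 for muscle, -1.297 to -0.992 for germ line, 0.8264 to 1.699 for the mitochondrial genome and -0.03197 to 0.006424 for autophagy. The cause was not tested.

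Of 142 named genes none changed sign in fits without 1 library (1301 of 1420 values kept their call, 109 lost it, 10 gained it). Under the other alternatives 1630 of 1823 values kept sign and call, 166 lost the call, 21 gained it and 6 changed sign, and 61 of the 142 genes kept both under every alternative. Signs turned only for genes not called: Pdp1 (-0.128), cry (0.02234) and dco (-0.01631) with roX1, and bchs (-0.05761), Pdp1 (-0.1437) and dco (-0.02334) with the length slope. Germ line markers gave no median at a mean of at least 50 counts. Depth limits genes near 0, whose folds are bounds.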
